A study of Rattus norvegicus with 6 samples.

Results

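Cardiomyocyte cultures from newborn Sprague-Dawley rats contained polyadenylated RNA from many places where the annotation lists no gene on that strand. The transcripts described here are the 1662 of 43035 features in the deposited gene count table that the authors had added to the annotation, that overlapped no annotated gene on the same chromosome and strand, and that held at least 60 counts over the 6 libraries. They were selected on their summed counts and positions from 10152 added transcripts, of which 2990 lay off the strand of any annotated gene and 5765 reached 60 counts. Antisense transcripts, which overlap an annotated gene on the opposite strand, made up 199 of the 1662. Another 1395 overlapped no annotated gene on either strand and are called intergenic. For 68 more the strand was listed as unknown although they overlapped a gene, so that they could not be assigned to either class. The strand was also unknown for 596 of the 1395 intergenic transcripts. Each transcript is written as NT. followed by the number in the identifier the authors gave it, and positions refer to the Rnor_6.0 rat genome.

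The cells came from hearts of Sprague-Dawley rats on postnatal day 1 and were kept in primary culture. All 6 cultures were transfected, 3 with a scramble siRNA (si-NC) and 3 with an siRNA against DYRK1A, a kinase that restrains the cell cycle (si-DYRK1A), and RNA was taken at 48 h. The question put to these data was which transcripts differ between si-DYRK1A and si-NC. The labels name 3 biological replicates per group but do not say whether they came from separate isolations, so that p-values measure the spread between these libraries.

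Antisense RNA is transcribed from the strand opposite a gene and can meet the gene at its start, at its end or within its body. Intergenic RNA includes long non-coding RNA genes, precursors from which microRNAs are cut, RNA running out of active promoters in the reverse direction, RNA continuing past the annotated end of a gene, processed pseudogenes and endogenous retroviruses. Endogenous retroviruses are remnants of germline infections that keep pieces of the gag, pol and env genes, and many are held silent by histone and DNA methylation. In the heart, long non-coding RNAs near genes for transcription factors and sarcomere proteins are known to take part in cardiac development.

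Library totals were 10325074 to 11921772 counts in si-NC and 10703229 to 11723974 in si-DYRK1A, and the 1662 transcripts took 2.56% to 2.63% of each library. Dyrk1a itself was listed with 7 counts in all, 4 in si-NC and 3 in si-DYRK1A, and the added transcript spanning it on its strand (NT.4153) measured 74.5, 77.7 and 80.9 CPM (counts scaled to the normalised library size) in si-NC and 85.4, 80.1 and 81.7 CPM in si-DYRK1A, which overlapped (log2 fold change 0.08, adjusted p = 0.374 by edgeR). These counts do not check the labels, and every direction given here rests on them. Of 24 cardiomyocyte markers found, 13 could be tested. Myh6, Myh7, Mybpc3, Tnni3, Myl2 and Hand2 were listed at 0, each with an added transcript of at least 60 counts on its own strand. The summed level of the cardiomyocyte markers was 27862 to 28797 CPM in si-NC and 32003 to 32751 CPM in si-DYRK1A. The fibroblast markers were also abundant, with sums of 21531 to 26245 CPM in si-NC and 20368 to 21107 CPM in si-DYRK1A. Of the 13 cardiomyocyte markers tested, 5 were called higher and 0 lower in si-DYRK1A. Of the 6 fibroblast markers tested, 2 were called higher and 0 lower, although their sum was lower in every si-DYRK1A library. Of the 6 endothelial markers tested, 3 were lower and 0 higher. None of the 6 macrophage and 2 smooth muscle markers tested was called. Over all features tested 15.2% were called. In bulk RNA, fewer cells of a type and less RNA per cell cannot be told apart.

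Several of these transcripts lay within a few bases of a microRNA hairpin or started back to back with a gene, and the sequences at those places are shown because the results below return to them. Within 10 kb of 12 members lay 14 annotated microRNA genes, of which 12 matched the RefSeq table of build GRCr8 by symbol. The mature forms nearest to 5 of the members, each within 13 bp (Mir34a beside NT.14969, Mir3554 beside NT.14296, Mir101a beside NT.14357 and Mir146a beside NT.2769) or overlapping (Mir301a opposite NT.3425), are given with the seed, bases 2 to 8, in capitals. The seed is the stretch that pairs with target mRNAs.

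rno-miR-34a-5p: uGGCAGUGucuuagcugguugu

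rno-miR-34a-3p: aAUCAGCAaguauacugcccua

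rno-miR-31b: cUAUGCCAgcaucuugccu

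rno-miR-101a-3p: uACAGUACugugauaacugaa

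rno-miR-146a-5p: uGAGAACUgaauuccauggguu

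rno-miR-301a-5p: gCUCUGACuuuauugcacuac

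The cluster of Mir23a, Mir27a and Mir24-2 on chromosome 19 lay between 2 members, NT.9010 and NT.9014, and its main mature forms are shown for that reason.

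rno-miR-23a-3p: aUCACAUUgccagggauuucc

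rno-miR-27a-3p: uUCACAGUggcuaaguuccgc

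rno-miR-24-3p: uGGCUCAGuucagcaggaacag

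Among the rat mature sequences in the table, the seed of miR-34a-5p was shared by 5 (miR-34a, 34b, 34c, 449a and 449c), and the seeds of miR-23a-3p and miR-27a-3p were each shared by 2, the a and b copies.

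Intergenic transcripts started back to back with 53 genes within 1 kb, and 38 of these had a promoter in the RefSeq table. The 250 bases before the start of these genes held a median of 17.5 CG pairs and 59.6% G or C, compared with 5 CG pairs and 51.2% over all 33469 promoters. The set of all promoters was not limited to genes with RNA in these cells, so that the difference cannot be tied to the divergent transcript. The letters GGGCGG, the GC box, were present on either strand in 57.9% of the 38 and in 30.5% of all promoters. The CCAAT box, searched as ATTGG on both strands, was in 44.7% and 34.0%, and TATAAA was in 7.89% and 12.9%. The promoters of 29 genes met start to start by an antisense transcript had medians of 16 CG pairs and 60.8% G or C, and GGGCGG in 51.7%. The promoter of Sowahb, an ankyrin-repeat gene, is printed because both it and the transcript running away from it changed, and that of Uqcrc2, a subunit of mitochondrial complex III, because its divergent partner began 4 bp away. Capitals mark GGGCGG or its reverse complement, and the Uqcrc2 window held none of the 3 motifs.

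Sowahb promoter, RefSeq build GRCr8, chr14:15313311-15313560, plus strand: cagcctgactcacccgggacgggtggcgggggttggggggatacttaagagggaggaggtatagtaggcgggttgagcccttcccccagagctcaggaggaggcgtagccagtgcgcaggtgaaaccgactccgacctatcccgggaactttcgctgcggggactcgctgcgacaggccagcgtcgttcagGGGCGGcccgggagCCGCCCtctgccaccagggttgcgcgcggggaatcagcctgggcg

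Uqcrc2 promoter, RefSeq build GRCr8, chr1:184598990-184599239, plus strand: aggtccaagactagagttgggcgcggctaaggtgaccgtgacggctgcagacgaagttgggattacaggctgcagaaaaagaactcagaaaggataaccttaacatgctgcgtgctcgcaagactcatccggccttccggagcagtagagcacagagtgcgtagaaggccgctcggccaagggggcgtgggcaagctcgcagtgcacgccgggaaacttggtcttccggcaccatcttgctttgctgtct

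The antisense and intergenic transcripts were low next to annotated genes. Median totals over the 6 libraries were 366 counts for the antisense and 301 for the intergenic class, and the median level per length was 3.84 and 2.97 FPKM, compared with 7.12 FPKM for annotated genes of at least 60 counts. A low level per length was not particular to these classes. Added transcripts of at least 60 counts on the strand of a gene had medians of 754 counts and 2.63 FPKM. A few transcripts carried much of the RNA: the 5 with the most counts held 46.4% of all antisense counts and 18.4% of all intergenic counts. Most antisense transcripts were spliced, with 42 of 199 (21.1%) listed as 1 exon, whereas 926 of 1395 intergenic transcripts (66.4%) were. These shares are not like for like, since only a transcript with a listed strand could be classed as antisense. All 596 intergenic and all 68 unassigned transcripts of unknown strand had 1 exon. Of the 799 intergenic transcripts with a listed strand, 330 had 1 exon. Close to the limit of 60 counts stood NT.10340 and NT.2472 with 60 (log2 fold changes -0.55 and 0.12). Just outside, with 59, were NT.11838 (0.16) and NT.15108, which had too few counts to be tested. Some members may be pieces of 1 transcript, since joining those within 10 kb on a strand left 196 antisense and 1336 intergenic units.

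Most of these transcripts did not differ measurably between the groups. All 199 antisense and 1381 of the 1395 intergenic transcripts could be tested with edgeR, in a fit over all 15513 features with enough counts. The antisense class had 11 transcripts higher and 10 lower in si-DYRK1A at an adjusted p below 0.05 (10.6% of those tested), and the intergenic class had 95 higher and 54 lower (10.8%). Over all features tested 15.2% were called, 8.03% higher and 7.19% lower. The antisense count rested on single libraries, with 8 and 13 calls when replicate 2 or 3 of si-DYRK1A was left out, and DESeq2 called 11 antisense and 87 intergenic transcripts. Of the 68 unassigned transcripts, 3 were called, all higher (4.41%). Median log2 fold changes were -0.01 for antisense and 0.00 for intergenic transcripts, as over all features.

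Low counts went with few calls in both classes. Of transcripts with fewer than 200 counts, 3.12% of the antisense and 3.34% of the intergenic were called, next to 4.0% of all features in that range. From 200 to below 1000 counts the shares were 9.09% and 11.6%, next to 10.5%, and from 1000 to below 5000 counts 20.6% and 23.4%, next to 21.6%. At 5000 counts or more, 4 of 13 antisense transcripts were called (30.8%), all lower, and 8 of 40 intergenic ones (20%), next to 29.4%. The groups did not overlap at all for 47 antisense transcripts (23.6%) and 353 intergenic ones (25.6%), and for 31.5% of all features tested.

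**Figure D1:**
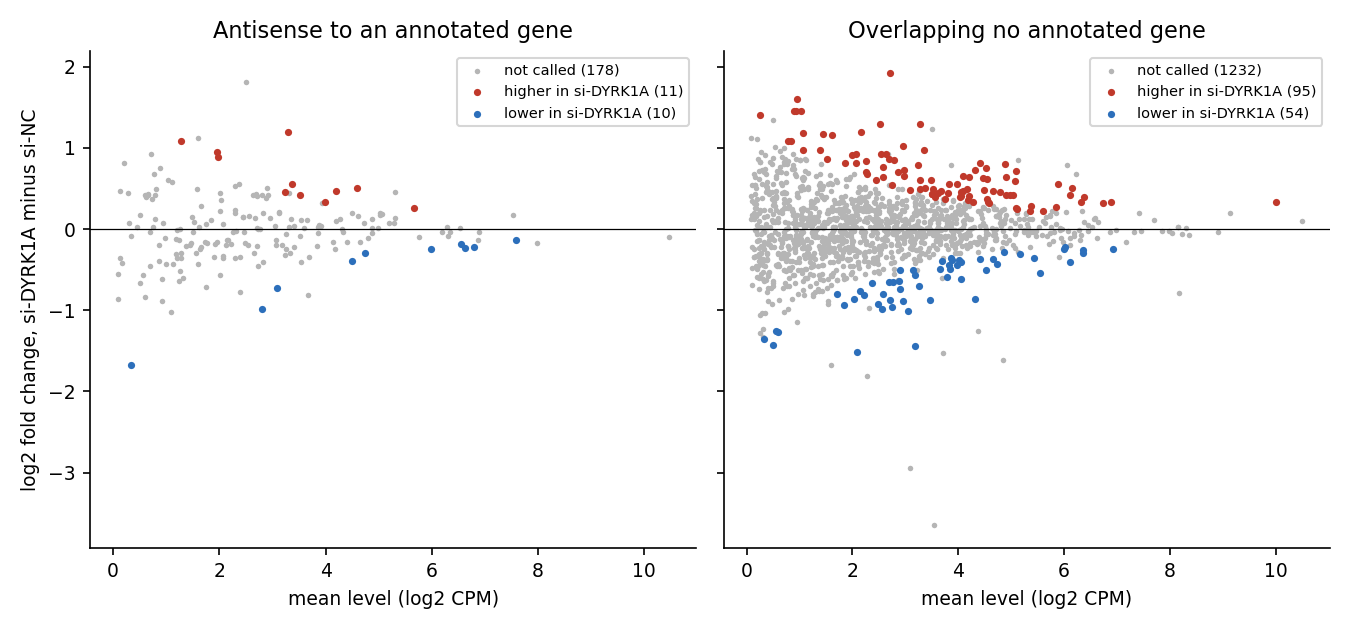
Log2 fold change (si-DYRK1A minus si-NC) of each tested transcript against its mean level in log2 CPM, for antisense transcripts (left) and intergenic ones (right). Red points were called higher (11 and 95), blue points lower (10 and 54) and grey points not called, and called points are sparse at low levels, where counts are few.

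The highest antisense transcript lay against the end of Actb, the gene of cytoplasmic actin. This transcript, NT.4731 (chromosome 12, 13718838 to 13719428, minus strand, 1 exon of 591 bases), overlapped the last 4 bp of Actb and measured 1351.5, 1472.8 and 1546.6 CPM in si-NC and 1368.7, 1375.3 and 1331.5 CPM in si-DYRK1A. The groups overlapped (log2 fold change -0.10 with a standard error of 0.0452, adjusted p = 0.148 by edgeR), although without si-NC replicate 1 it was called lower (adjusted p = 0.0389). Per length it stood level with the gene it met, at 0.997 of the counts per base of Actb. Actb itself was lower in si-DYRK1A (log2 fold change -0.18, adjusted p = 0.0179).

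The next in level were NT.19599, NT.17692, NT.5372 and NT.16151, with mean levels between 116.9 and 264.3 CPM in each group, and of these only NT.17692 passed the test. It lay on chromosome 8 (69446501 to 69449804, plus strand) and shared 4 bp with the end of Ids, the lysosomal enzyme iduronate 2-sulfatase. Its levels were 192.7, 205.4 and 205.3 CPM in si-NC and 188.7, 177.8 and 180.2 CPM in si-DYRK1A, each lower than any si-NC value (log2 fold change -0.14, adjusted p = 0.043, edgeR), and the call was lost without either of si-NC replicates 2 and 3 or si-DYRK1A replicates 2 and 3.

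The antisense transcript with the smallest p was NT.3305, which lies wholly inside the span of Nf1, the gene of neurofibromin, a Ras GTPase-activating protein (chromosome 10, 66827328 to 66829418, minus strand, 1138 bases in more than 1 exon). Its levels were 5.56, 4.31 and 7.61 CPM in si-NC and 13.7, 12.9 and 13.7 CPM in si-DYRK1A. Every si-DYRK1A library was above every si-NC library, and the mean rose from 5.83 ± 1.66 to 13.4 ± 0.46 CPM (SD, n = 3; log2 fold change 1.20 with a standard error of 0.172, adjusted p = 4.3e-05 by edgeR). The annotated Nf1 row held at most 1 count in any library, so that no comparison with the gene could be made. Over the 6 libraries, the annotated genes whose log2 CPM followed it most closely among the 9682 compared were Fdft1, Lamtor2 and Arl6ip6 (Pearson r 0.992 to 0.995, given as a description). These genes were picked for the highest r, and their log2 fold changes were much smaller, at 0.15, 0.15 and 0.19.

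The second smallest p belonged to a transcript that fell. This was NT.18725, opposite Adam23, a cell-surface protein of the disintegrin family without protease activity (chromosome 9, 70165687 to 70179162, minus strand). It measured 8.63, 8.46 and 9.78 CPM in si-NC and 3.96, 4.99 and 4.67 CPM in si-DYRK1A, with no overlap (log2 fold change -0.98 with a standard error of 0.173, adjusted p = 0.000394 by edgeR). Adam23 itself had too few counts to test, between 0.0836 and 0.616 CPM.

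The largest fall among called antisense transcripts was in one of low level. Opposite Zbtb7c, a zinc finger repressor, NT.8783 measured 2.01, 1.69 and 1.25 CPM in si-NC and 0.704, 0.283 and 0.519 CPM in si-DYRK1A (log2 fold change -1.68, adjusted p = 0.0122, edgeR), while Zbtb7c had a log2 fold change of -0.02 (adjusted p = 0.95). The call of NT.8783 was lost without si-NC replicate 1 or si-DYRK1A replicate 2. Among those higher in si-DYRK1A were NT.7054 opposite Mycbp2, a ubiquitin ligase (0.95), NT.6194 (0.89) and NT.5058 opposite Pptc7, a mitochondrial phosphatase (0.55, all log2 fold changes), and NT.17316 opposite Tmed1 was lower (-0.72). For NT.6194 and NT.7054 the call was lost without si-NC replicate 2 or si-DYRK1A replicate 2.

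Taking each antisense transcript with each gene opposite gave 219 pairs, 180 of them with a protein-coding gene. In 93 pairs the transcript lay inside the span of the gene, in 46 both met start to start, in 41 end to end, and in 39 the gene lay inside the span of the transcript. Overlaps were very short in a minority, with 20 of the 219 pairs sharing fewer than 10 bp. Median overlaps ran from 279 bp in end-to-end pairs to 2381 bp where the transcript lay inside the gene. At least 50% of the span lay opposite the gene for 108 of 199 transcripts. The gene opposite held fewer than 60 counts in 108 pairs and was listed at 0 in 39. Of the 105 different genes with fewer than 60 counts, 52 had an added transcript of at least 60 counts on their own strand.

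Transcript and gene could both be tested in 114 pairs. The transcript was called in 13 of these (11.4%) and the gene in 29 (25.4%), next to 15.2% of all features, and both were called in 6, each time in the same direction, 2 higher and 4 lower. In none were the calls opposite, and in 23 the gene was called and the transcript was not. Log2 fold changes had the same sign in 71 of 114 pairs (Pearson r 0.36, Spearman rho 0.33, described across pairs that share all 6 libraries). Pairs that met end to end had the highest r, 0.63 with 27 of 33 of the same sign, compared with 0.37 in 24 start-to-start pairs and 0.12 in 52 pairs with the transcript inside the gene, of which 23 had the same sign. Whether the counting used strand is not given in the sources used here. Without strand, the reads of a gene and its antisense partner cannot be told apart where they overlap. Nor is it given how strand was assigned to transcripts of 1 exon. If the reads carried no strand, such a transcript could not be told apart from RNA of the gene it meets. NT.4731, NT.5117 and NT.3924 had 1 exon and stood at 0.997, 0.909 and 0.994 of Actb, Wsb2 and Sept9 per length.

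In 5 of the 6 pairs called together, transcript and gene met end to end with 3 to 955 bp in common, and in the other the transcript lay wholly inside the gene over 1757 bp. Nek2, a kinase of centrosome separation, and NT.5818 (chromosome 13, 110522767 to 110524755, minus strand) shared 3 bp. The transcript measured 19.1, 21.1 and 18.9 CPM in si-NC and 28.8, 27.4 and 27.9 CPM in si-DYRK1A, and Nek2 measured 36.0, 38.8 and 47.7 CPM and 60.5, 60.7 and 65.2 CPM. Neither overlapped between groups, and the log2 fold changes were 0.51 (adjusted p = 0.000472) and 0.60 (adjusted p = 9.94e-05, edgeR). Per length the transcript stood at 0.322 of Nek2.

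Inside Sept9, a septin of the cytoskeleton, NT.3924 measured 98.2, 103.4 and 95.6 CPM in si-NC and 86.9, 86.4 and 89.4 CPM in si-DYRK1A, and Sept9 measured 97.0, 98.7 and 96.2 CPM and 85.4, 79.3 and 88.5 CPM. Both were lower in every si-DYRK1A library, by small amounts (log2 fold changes -0.18, adjusted p = 0.0261, and -0.20, adjusted p = 0.0139, edgeR), and per length the transcript stood at 0.994 of the gene. Dtx3l, a ubiquitin ligase of the deltex family, and NT.4322 were both higher, with log2 fold changes of 0.61 and 1.09. Wsb2, a WD repeat protein with a SOCS box, and NT.5117 were both lower (-0.21 and -0.23), and so were Cplx2, a complexin, and NT.7768 (-0.50 and -0.39) and Ids and NT.17692 (-0.25 and -0.14). The number of pairs called together rests on single libraries: leaving out si-NC replicate 2 gave 2 pairs, and leaving out replicate 1, 2 or 3 of si-DYRK1A gave 3, 1 and 1 pairs.

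The log2 ratio of transcript to gene, with 0.1 CPM added to both, was compared between the groups as a description, since choosing pairs with both called in the same direction limits how far it can move. In si-DYRK1A minus si-NC it differed by 0.44 for NT.4322 and Dtx3l, 0.13 for NT.7768 and Cplx2, 0.11 for NT.17692 and Ids, 0.03 for NT.3924 and Sept9, -0.01 for NT.5117 and Wsb2 and -0.11 for NT.5818 and Nek2. The ratios of the groups did not overlap for NT.17692 and Ids and overlapped for the other 5 pairs. Per length, the transcript was above the gene opposite in 46 of the 114 pairs. It was so most of all for NT.16151 against Oaz1, NT.8141 against Wac and NT.8453 against Myo7b, none of which was called. These 3 ratios rest on few counts of the gene, 67 for Oaz1, 84 for Wac and 88 for Myo7b over the 6 libraries. NT.8453 carries a listed actin domain, so that its reads may fit other actin copies.

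**Figure D2:**
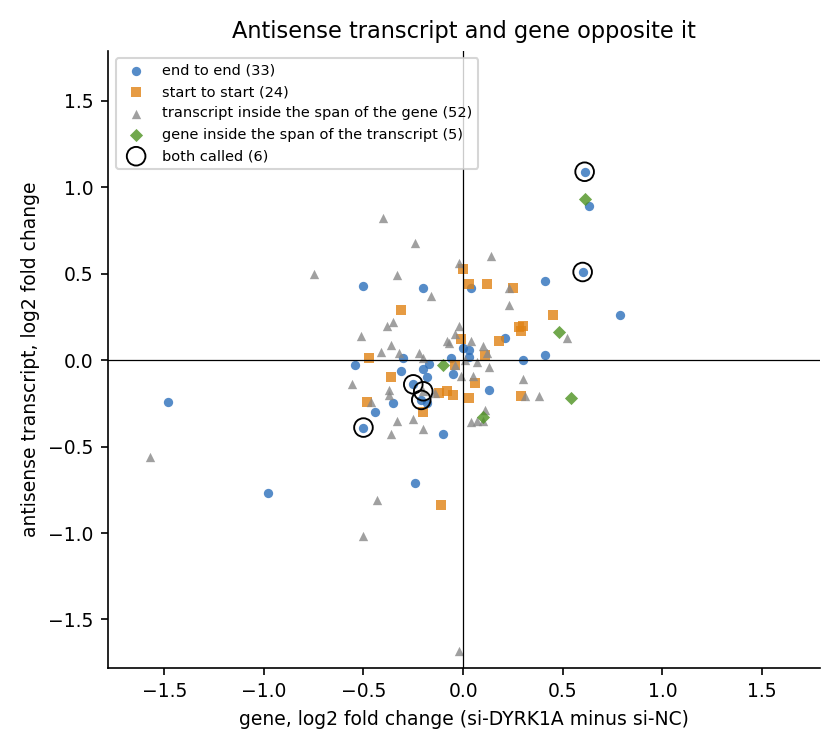
Log2 fold change (si-DYRK1A minus si-NC) of each antisense transcript (vertical) against that of the gene opposite (horizontal) for the 114 pairs in which both were tested, with the shape and colour giving how they lie. Rings mark the 6 pairs in which both were called, and all 6 lie at the lower left or the upper right.

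Among intergenic transcripts the highest was NT.16056, a spliced transcript with a listed ribosomal protein S26 domain (chromosome 7, 3051681 to 3053885, minus strand). It measured 1422.1, 1171.2 and 1597.5 CPM in si-NC and 1365.6, 1583.6 and 1531.3 CPM in si-DYRK1A, overlapping widely (log2 fold change 0.10, adjusted p = 0.739). Next in level after the first 2, NT.3828, NT.1091 and NT.12034, were not called either.

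The second in level was called. It was NT.15200, 1 exon of 2255 bases on chromosome 6 (24181963 to 24184217, minus strand) whose end faces that of Lbh, a transcription cofactor named for limb bud and heart, at a distance of 97 bp. Levels were 918.1, 920.4 and 877.8 CPM in si-NC and 1164.8, 1122.6 and 1141.1 CPM in si-DYRK1A, well apart (log2 fold change 0.34 with a standard error of 0.0398, adjusted p = 3.96e-06 by edgeR). Lbh measured 254.6, 238.0 and 250.5 CPM and 361.4, 317.2 and 320.7 CPM (log2 fold change 0.43, adjusted p = 4.69e-06). How strand was assigned to transcripts of 1 exon is not given. If the reads carried no strand, NT.15200 could not be told apart from RNA continuing past the annotated end of Lbh.

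The smallest p and the largest rise of the intergenic class were those of NT.11999, a spliced transcript 46.4 kb from the nearest annotated gene (chromosome 3, 109280405 to 109285059, minus strand, 2423 bases). It measured 3.45, 2.62 and 2.01 CPM in si-NC and 10.1, 9.7 and 10.6 CPM in si-DYRK1A. The lowest si-DYRK1A value was above the highest si-NC value by far more than the spread of either group, and the mean rose from 2.69 ± 0.725 to 10.1 ± 0.43 CPM (SD, n = 3; log2 fold change 1.92 with a standard error of 0.199, adjusted p = 6.37e-07 by edgeR). The annotated genes closest to it over the 6 libraries were Rasd1, a Ras-like protein induced by dexamethasone, Dkk2, a secreted Wnt modulator, and Pla2g7, the phospholipase that inactivates platelet-activating factor (Pearson r 0.995 to 0.999, as a description). They too were picked for the highest r, and their log2 fold changes were 0.79, 1.46 and 0.41.

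The third smallest p of the class, and one of its largest falls, belonged to NT.10474, which lies 1035 bp beyond the end of Csf1, the macrophage colony-stimulating factor, on the same strand (chromosome 2, 210517973 to 210521340, 1 exon). It measured 14.4, 13.8 and 10.7 CPM in si-NC and 5.01, 4.90 and 4.41 CPM in si-DYRK1A, with a wide gap between the groups (log2 fold change -1.44 with a standard error of 0.164, adjusted p = 2.31e-06 by edgeR). Csf1 also fell, but by less, from 147.8, 132.3 and 141.7 CPM to 117.0, 117.1 and 118.3 CPM (log2 fold change -0.26, adjusted p = 0.00123).

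The other transcripts with the largest changes were near the lower limit of measurement, at means of 0.59 to 2.74 CPM, except NT.16347 at 6.02 CPM in si-NC and 2.10 CPM in si-DYRK1A. Its log2 fold change was -1.52 (adjusted p = 0.000219), and like NT.5844 (-1.27) it carries a listed domain of glyceraldehyde 3-phosphate dehydrogenase, a glycolytic enzyme with many processed copies in rodent genomes. Counts of such copies are uncertain, since reads may fit the parent gene and other copies equally well. Higher in si-DYRK1A were NT.7379 (1.60), NT.9891, NT.1354 and NT.10026 (1.45 each), and lower were NT.522 (-1.43) and NT.7397 (-1.36). The calls of NT.9891, NT.522, NT.7397 and NT.5844 were each lost on leaving out any of 4 or 5 of the 6 libraries.

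**Figure D3:**
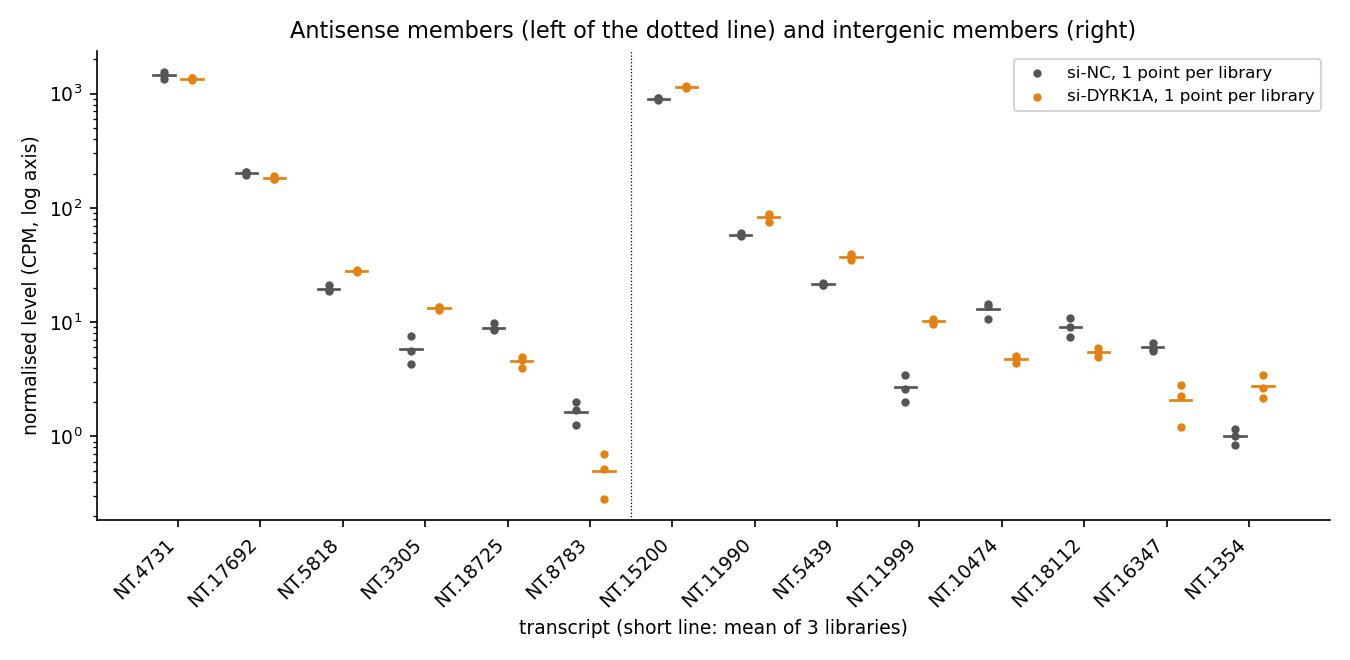
Normalised level in CPM (log axis) of 6 antisense transcripts (left of the dotted line) and 8 intergenic ones (right) in each si-NC library (grey) and each si-DYRK1A library (orange), with a short line at the mean of 3 libraries. Apart from NT.4731, opposite the end of Actb, the groups do not overlap for any transcript shown, and most of those shown were picked for large or well-supported differences.

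The median distance of an intergenic transcript from the nearest annotated gene was 8.62 kb. Within 1 kb lay 286 of them, of which 282 were tested and 29 called (10.3%, next to 15.2% of all features), 16 higher and 13 lower. For 23 of the 29 the neighbour could be tested too, and in 13 of those it was called in the same direction and in none in the opposite direction. Neighbours in this range with fewer than 60 counts numbered 102, and 31 of them had an added transcript of at least 60 counts on their own strand, so that their own level may be listed elsewhere in the table.

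How a transcript lay relative to its neighbour went with how closely the changes ran together. Log2 fold changes of transcript and neighbour within 1 kb had a Pearson r of 0.61 over 47 transcripts beyond the end of a gene on its strand, 0.69 over 18 that converged with the gene from the other strand, and 0.74 over 65 with no strand listed. For 34 divergent transcripts r was 0.11. For 14 lying before the start on the same strand it was -0.82, which rested on NT.18456 and became -0.11 without it. These are descriptions over pairs that share the same libraries, and no difference between the arrangements was tested. For transcripts of 1 exon the basis of the listed strand is not known, so that their arrangement is uncertain. Per length, 23 of the 47 transcripts beyond a gene's end and 12 of the 18 convergent ones stood between 0.5 and 2 times the level of the neighbour, compared with 9 of the 34 divergent ones.

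**Figure D4:**
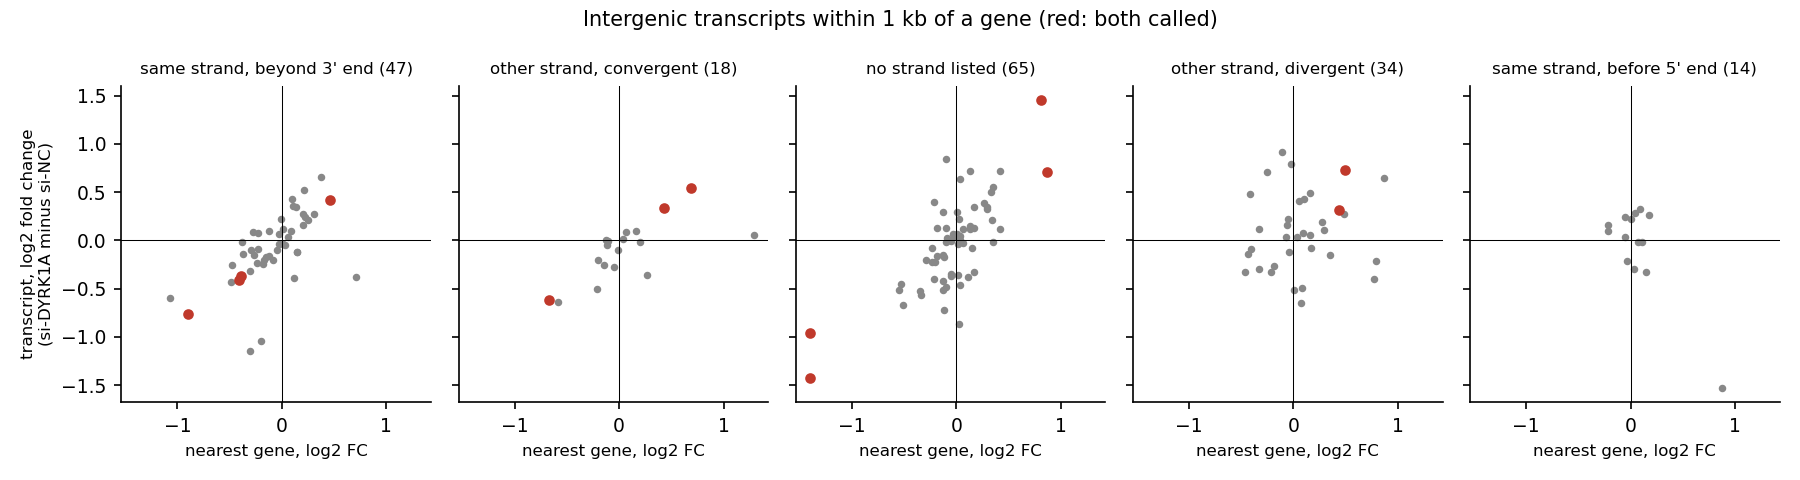
Log2 fold change (si-DYRK1A minus si-NC) of intergenic transcripts (vertical) against that of the nearest annotated gene within 1 kb (horizontal), in 1 panel for each arrangement with the number of pairs in brackets. Red points mark the 13 pairs in which both were called, all at the lower left or the upper right.

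Beyond the end of genes, the transcript changed with the gene in 4 of 4 called cases with a tested neighbour. One was NT.9690, which starts 86 bp past Lifr, the receptor of leukemia inhibitory factor (chromosome 2, 56489501 to 56493971, plus strand). It measured 82.8, 75.3 and 77.0 CPM in si-NC and 59.3, 57.7 and 60.4 CPM in si-DYRK1A, and Lifr measured 90.6, 92.2 and 89.3 CPM and 71.3, 65.6 and 67.7 CPM. Both fell by 0.41 on the log2 scale with no overlap (adjusted p = 7.66e-05 and 2.73e-05, edgeR). The others lay past Prr11, a cell cycle gene (NT.3420, 0.42, with the gene at 0.46), Atp9a, a phospholipid flippase (NT.12593, -0.37 and -0.39), and Upk3b, a uroplakin known as a mesothelial marker (NT.4881, -0.76 and -0.90). NT.12593, 597 bp past Atp9a, carries a listed C-terminal domain of a phospholipid-translocating ATPase. Whether it is a piece of Atp9a was not tested.

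Of 5 called convergent transcripts with a tested neighbour, 3 had a neighbour that was called too. The other 2 were NT.15733, which fell by 0.26 on the log2 scale beside Vash1 (-0.15, adjusted p = 0.215), and NT.16576, which fell by 0.36 beside Cox6c, a subunit of cytochrome c oxidase (0.26, adjusted p = 0.346). NT.16576 is spliced over 78.8 kb and carries a listed C-terminal domain of a vacuolar sorting protein. Besides NT.15200 at Lbh, NT.1081 (chromosome 1, 135331989 to 135336370, plus strand) ended 4 bp from St8sia2, a polysialyltransferase. It measured 42.6, 51.0 and 49.2 CPM in si-NC and 73.4, 67.9 and 67.7 CPM in si-DYRK1A (log2 fold change 0.55, adjusted p = 1.64e-05), and St8sia2 rose by a log2 fold change of 0.69 (adjusted p = 1.75e-05). At Clmn, an actin-binding membrane protein, NT.15817, which like NT.15200 had 1 exon, fell by 0.61 and the gene by 0.67. With no strand listed, NT.10557 lay 897 bp from Synpo2, an actin-bundling protein of striated and smooth muscle, and rose from 4.51, 5.75 and 5.94 CPM to 8.97, 9.61 and 8.05 CPM (log2 fold change 0.71, adjusted p = 0.00609), while Synpo2 rose by 0.87.

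Divergent transcripts changed both with and without the gene. Of 7 called within 1 kb, 6 had a tested partner, and 2 of those partners were called. One was Sowahb, whose promoter is printed above. Its partner NT.5968, starting 292 bp away, measured 6.23, 4.23 and 6.86 CPM in si-NC and 10.8, 8.19 and 9.61 CPM in si-DYRK1A (log2 fold change 0.73, adjusted p = 0.00932), and Sowahb measured 16.4, 18.8 and 19.2 CPM and 23.4, 24.8 and 28.5 CPM (log2 fold change 0.49, adjusted p = 0.00202). At Uqcrc2, NT.1459 measured 9.78, 9.47 and 9.20 CPM and 12.1, 11.7 and 14.4 CPM (log2 fold change 0.43, adjusted p = 0.0338), and the gene, at 476.8 to 547.7 CPM, was not called (0.10, adjusted p = 0.121). Beside Six2, a homeobox factor, NT.15128 was lower (-0.65, adjusted p = 0.0131) and Six2 had a log2 fold change of 0.07 (adjusted p = 0.865).

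Lists of cardiomyocyte, heart transcription factor, cell cycle, fibroblast and other genes had 3 antisense members opposite one of their genes and 10 intergenic members within 10 kb of one. Of these 13, 2 were higher and 1 was lower (23.1%, next to 15.2% of all features). Divergent from Actc1, the gene of cardiac alpha-actin, NT.11990 (chromosome 3, 105514213 to 105524493, plus strand, spliced) began 1274 bp away and measured 59.8, 58.0 and 57.3 CPM in si-NC and 88.6, 84.6 and 75.4 CPM in si-DYRK1A. The groups were well apart (log2 fold change 0.51 with a standard error of 0.0657, adjusted p = 1.31e-05 by edgeR), and Actc1 rose by less (0.13, adjusted p = 0.0193). The summed cardiomyocyte markers given above moved the same way, and their part in this difference was not tested.

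Near Myocd, the gene of myocardin, a coactivator of serum response factor, NT.3034 measured 30.5, 33.3 and 30.5 CPM in si-NC and 39.6, 36.9 and 35.8 CPM in si-DYRK1A (log2 fold change 0.25, adjusted p = 0.0375), a call lost without any library but si-NC replicate 2, and Myocd had a log2 fold change of 0.29 (adjusted p = 0.00273). Near Myl3, the ventricular essential myosin light chain, NT.18112 measured 9.01, 7.36 and 10.8 CPM in si-NC and 5.89, 5.46 and 4.93 CPM in si-DYRK1A. It was lower in each si-DYRK1A library (log2 fold change -0.74, adjusted p = 0.00614, edgeR), and Myl3 itself did not pass the test (-0.11, adjusted p = 0.0878).

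Of the 6 transcripts beside a listed heart transcription factor or cofactor, NT.3034 at Myocd was the one that passed the test. Among the others, the log2 fold changes were 0.21 for NT.6898 beside Gata4, 0.26 for NT.2730 beside Nkx2-5, -0.40 for NT.8357, which begins 308 bp from the start of Gata6 in the other direction, and -0.21 for NT.18404 opposite Srf. The 3 beside listed cell cycle genes did not pass it either, with 0.68 for NT.10945 beside Cdkn1a, 0.39 for NT.13701 beyond Cdkn1b and 0.19 for NT.12451, which lies 14 bp from Rbl1, a pocket protein of the retinoblastoma family. Adjusted p-values of these 7 lay between 0.0905 and 0.495. Srf itself was called higher (log2 fold change 0.38, adjusted p = 0.00161, edgeR), in the other direction from NT.18404, while Gata4, Nkx2-5 and Gata6 were not called. Beside Myl7, the atrial light chain, NT.6386 measured 5.24 to 6.61 CPM in si-NC and 6.75 to 10.5 CPM in si-DYRK1A (adjusted p = 0.0784), and opposite Col1a1 NT.3503 had a log2 fold change of -0.20 (adjusted p = 0.44).

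Of the 12 transcripts within 10 kb of a microRNA gene, 2 passed the test (16.7%, next to 15.2% of all features) and both were higher. Next to Mir34a, whose mature form miR-34a-5p is known as a target of p53 and for roles in cardiac ageing and repair, NT.14969 (chromosome 5, 167092598 to 167095765, strand unknown, 1 exon of 3168 bases) lay 6 bp from the hairpin. It measured 21.8, 20.5 and 21.3 CPM in si-NC and 26.4, 25.7 and 27.3 CPM in si-DYRK1A, with no overlap and little spread (log2 fold change 0.32 with a standard error of 0.0893, adjusted p = 0.0168 by edgeR). The hairpin itself held 4 counts in all, and mature microRNAs are too short for libraries of this kind.

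The other was NT.14296 (chromosome 5, 107206637 to 107207321, minus strand), which lies 11 bp from the Mir3554 hairpin. The deposited table places the hairpin on the minus strand too, whereas GRCr8 has it on the plus strand, so that how the transcript lies relative to it is uncertain. It measured 13.5, 15.5 and 13.1 CPM in si-NC and 18.5, 18.9 and 18.6 CPM in si-DYRK1A, again without overlap (log2 fold change 0.41 with a standard error of 0.108, adjusted p = 0.012 by edgeR). RefSeq names the mature form of this hairpin miR-31b. Around the Mir23a, Mir27a and Mir24-2 cluster, known for angiogenic and hypertrophic roles in the heart, NT.9010 measured 15.7 to 18.4 CPM in si-NC and 15.2 to 17.3 CPM in si-DYRK1A, and NT.9014 measured 3.74 to 7.27 and 3.08 to 5.71 CPM. Neither was called (adjusted p = 0.673 and 0.397), nor were the transcripts at Mir101a, Mir146a and Mir301a (log2 fold changes of -0.11, -0.33 and 0.23).

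Among transcripts far from any gene, more were called higher than lower. More than 10 kb from the nearest annotated gene, 63 of 658 tested were higher (9.57%) and 22 lower (3.34%). Up to 10 kb, 31 of 710 were higher (4.37%) and 32 lower (4.51%). Over all features the shares were 8.03% and 7.19%, so that the far transcripts were near them in higher calls and below them in lower calls, and the near transcripts were below both. Part of the far group was of retroviral origin by its listed protein domains, with 10 of its 24 such transcripts called, all higher, and without them 53 of 634 were higher (8.36%) and 22 lower (3.47%). The difference between near and far transcripts was not tested.

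Transcripts with the domains of retroviral proteins (gag, protease, RNase H, integrase or envelope) were grouped after the values had been seen, so that no test of the group is given. They numbered 35, in 34 units, and all were tested. Of these, 11 were higher and 1 lower in si-DYRK1A (34.3% called), the median log2 fold change was 0.44, 26 of 35 were positive, and 20 did not overlap between groups (57.1%). Over all features tested 15.2% were called, 8.03% higher, and 31.5% did not overlap. The added transcripts lying on the strand of an annotated gene held 13 more with such domains, of which 5 were higher and none lower (median 0.28). Of the 12 members with only a reverse transcriptase or LINE-1 domain, 0 were called by edgeR. Elements of a retroviral family are near-identical copies, and how reads that fit several were counted is not given in the sources used here, so that the value of any 1 copy is uncertain.

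The clearest member of the group was NT.5439, a transcript with a gag core domain, strand unknown, on chromosome 13 (60692228 to 60694497). It measured 21.0, 22.2 and 21.2 CPM in si-NC and 39.4, 35.0 and 37.9 CPM in si-DYRK1A, and the mean rose from 21.4 ± 0.628 to 37.4 ± 2.22 CPM (SD, n = 3; log2 fold change 0.80, adjusted p = 8.61e-07, edgeR). Just beside it, from 60690718 to 60691731, NT.5438 with an envelope domain measured 6.71, 6.60 and 7.02 CPM and 13.4, 13.4 and 13.1 CPM (log2 fold change 0.97, adjusted p = 3.56e-05).

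On other chromosomes, NT.4187 on chromosome 11, with reverse transcriptase and RNase H domains, measured 15.6, 14.7 and 14.2 CPM in si-NC and 23.6, 23.6 and 26.4 CPM in si-DYRK1A (log2 fold change 0.73, adjusted p = 2.69e-05). The largest rise was that of NT.6970 on chromosome 15, with an integrase domain, from 2.49, 1.61 and 1.34 CPM to 4.13, 3.86 and 4.07 CPM (log2 fold change 1.16, adjusted p = 0.00445). Smaller rises passed the test for NT.13206 (0.42), NT.2122 (0.41), NT.3827 (0.44), NT.7377 (0.66), NT.64 (0.77), NT.19911 (0.65) and the antisense transcript NT.7664 (0.47). Only NT.8768 fell, by 0.59 on the log2 scale, from 15.1, 16.6 and 17.5 CPM to 12.8, 9.13 and 10.8 CPM (adjusted p = 0.00315).

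The most abundant retroviral transcript did not follow. This was NT.1091, with a gag core domain and 13085 bases on chromosome 1, which measured 480.2, 508.8 and 467.5 CPM in si-NC and 511.3, 464.1 and 455.5 CPM in si-DYRK1A (log2 fold change -0.03, adjusted p = 0.787). The summed level of the 35 was 830 to 851 CPM in si-NC and 892.5 to 943.5 CPM in si-DYRK1A, and without NT.1091 it was 342.2 to 371.0 CPM and 428.5 to 442.5 CPM. Neither sum overlapped between the groups.

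**Figure D5:**
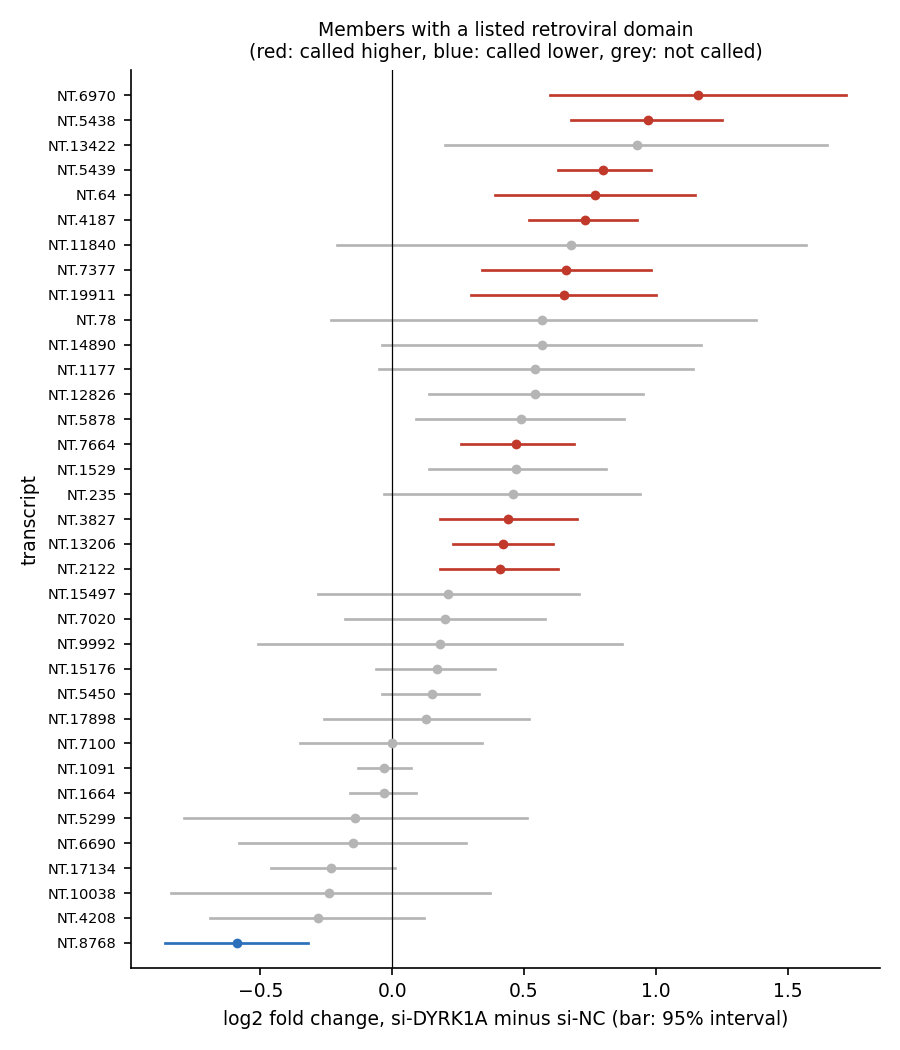
Log2 fold change (si-DYRK1A minus si-NC) with its 95% interval from edgeR for each of the 35 transcripts with a listed retroviral domain, ordered by size. Red marks the 11 called higher, blue the 1 called lower and grey the 23 not called, and 26 of the 35 points lie above 0.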

How the data were processed

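RNA of 6 cultures was sequenced in read pairs on an Illumina instrument. The authors aligned reads to the Rnor_6.0 rat genome with HISAT2 and deposited, for each feature, a raw count and an FPKM value (fragments per kilobase of transcript and per unit of mapped fragments) per library, for annotated genes and for transcripts they added. The submitters' processing notes instead name Bowtie 0.12.2 and the mouse build mm8. The library kit is named differently in the labels and the methods, and no source used here names the counting tool, its strand setting or its treatment of reads fitting several places. The deposited fold changes and p-values of the authors were not used.

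Members were found by position, with 1 base of overlap sufficient. The deposited counts were scaled by TMM (CPM), filtered with filterByExpr (minimum 10 counts) and tested with edgeR 4.0.16 (glmQLFit and glmQLFTest, R 4.3.3) over all features, without covariates, with Benjamini-Hochberg adjustment and calls at an adjusted p below 0.05. The script was tested on simulated data. Alternatives were DESeq2 1.42.0, limma 3.58.1 (voom, and log2(FPKM + 1) on the deposited FPKM values), other scalings and filters, and leaving out each library. Libraries of a group differed by more than sampling noise (chi-square per degree of freedom 2.63 to 6.49). Intervals are at 95%. Depth limits low transcripts.

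Named transcripts were, per class, the 5 highest in level, the 3 of smallest p and the 5 largest called changes in each direction without overlap between groups, plus up to 5 pairs called together, the 3 highest transcript to gene ratios, up to 12 members beside listed genes and those at the count limit. Other transcripts beside genes, microRNAs and retroviral domains were chosen after their values were seen. The members, lists and this rule were chosen with earlier results of these data known. Sequences are from RefSeq (GRCr8). No Rnor_6.0 sequence was used here.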

Additional observations from a re-analysis of the deposited data

How the results depend on the processing

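Totals of calls moved with the tool, the values used and the thresholds, but little with limma-voom on the counts (2320 in all, 20 antisense, 145 intergenic). The count over all features (2360) was 1544 with DESeq2, 1199 with limma on log2(FPKM + 1), 1180 with 0.1 added and 591 without a filter, 1307 at an adjusted p below 0.01, and 200 when a change of at least 1 on the log2 scale in either direction was also required. The antisense count (21) was 11, 10, 10, 3, 9 and 3 under the same alternatives, and the intergenic count (149) was 87, 75, 76, 37, 77 and 22. Pairs called together (6) numbered 1, 1, 1, 0, 1 and 0, and 11 without a filter on counts. Leaving out 1 library gave 1614 to 2210 calls in all, 8 to 25 antisense (8 without si-DYRK1A replicate 2, 13 without si-DYRK1A replicate 3), 104 to 135 intergenic, and 1 to 6 pairs. Restricting the members gave 69 calls among the 463 tested intergenic transcripts with more than 1 exon, 93 among the 802 more than 5 kb from a gene, and 9 among the 108 antisense ones with at least 50% of the span opposite a gene. The first of these was chosen after seeing the data. Its share called was 14.9%, next to 10.8% of the intergenic class, 10.6% of the antisense class and 15.2% of all features tested. These smaller counts partly follow from fewer transcripts tested. The cause of the other changes was not tested.

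Scaling by library size alone gave 1063 higher and 1339 lower over all features (1245 and 1115 with TMM), 8 and 11 antisense and 87 and 59 intergenic, with a median log2 fold change of -0.0239. Replicate numbers did not pair the libraries (correlations of same-numbered libraries 0.0682, -0.0221 and -0.00862), and with a replicate block 2269, 21, 147 and 6 calls were made, in the order above. Leaving out 1 library gave log2 fold changes from -0.08 to 0.01 for NT.1091, above 0 without si-NC replicate 2 or si-DYRK1A replicate 3, and from -0.02 to 0.2 for NT.16056, below 0 without si-NC replicate 2. Among the transcripts named by rule, 731 values under alternatives kept direction and side of the threshold, 107 lost the call and 12 gained one. The 12 retroviral calls were 10 with DESeq2 and 5 with limma on log2(FPKM + 1).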

Other observations

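Other groups by listed protein domain, formed after the values had been seen, held fewer calls than all features tested, of which 15.2% were called, 8.03% higher and 7.19% lower. Of 27 members with a ribosomal protein domain, a family with many processed pseudogenes, 24 had 1 exon, 1 was higher (3.7%) and none lower, and 21 had a negative log2 fold change (median -0.15). Of 15 members with a KRAB or C2H2 zinc finger domain, the family that includes repressors of retroviral elements, 0 were called by edgeR (median log2 fold change -0.01, 4 without overlap between groups). Of 104 added transcripts with such domains on the strand of an annotated gene, 3 were higher and 2 lower (4.81% called). Among 163 members with some other domain, 7 were higher (4.29%) and 11 lower (6.75%), with 100 negative and 63 positive log2 fold changes (median -0.10). Among 1396 tested without any domain 90 were higher (6.45%) and 52 lower (3.72%).

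Some of the largest fitted changes were not called, and their libraries spread widely within a group. These were chosen after their values were seen. Before a U2 gene on chromosome 8, NT.18096 held 23, 708 and 7 counts in si-NC and 19, 11 and 26 in si-DYRK1A (log2 fold change -3.65, standard error 2.06). The 253-base transcript NT.8460 held 141, 258 and 104 counts in si-NC and 12, 48 and 3 in si-DYRK1A, without overlap (log2 fold change -2.94, standard error 0.908, unadjusted p = 0.0298, edgeR). On the X chromosome, NT.19904 held 113, 43 and 90 counts in si-NC and 22, 34 and 13 in si-DYRK1A (log2 fold change -1.81, unadjusted p = 0.0205). Opposite Nr1h4, the bile acid receptor, NT.16355 held 35, 25 and 22 counts in si-NC and 158, 23 and 108 in si-DYRK1A (log2 fold change 1.81), so that 1 si-DYRK1A library stayed at the si-NC level.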
